A study of Mus musculus with 35 samples.

Results

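In naive mouse embryonic stem cells, chromatin accessibility without DNA methyltransferases was set against that of the parental line. The comparison used 6 of the 35 ATAC-seq libraries in the series, 3 of DNMT_KO and 3 of DNMT_WT at day 0, chosen by their genotype and time labels, over 1231381 autosomal tiles of 2 kb. DNMT_KO is a line with a triple knockout of Dnmt1, Dnmt3a and Dnmt3b, and DNMT_WT is the parental line from which it came. Both were sampled as embryonic stem cells grown in 2i and Lif, the medium that holds mouse cells in the naive state, before any differentiation, and no other treatment is given for either. Each genotype is 1 line, so that a difference between genotypes cannot be told apart from a difference between lines. Nothing in the labels says that the 3 libraries of a line came from separate cultures, and p-values may then measure technical spread. The same lines at day 2 of differentiation towards epiblast-like cells (3 DNMT_KO and 3 DNMT_WT libraries) and the TET family at day 0 (3 libraries of TET_KO, which lacks Tet1, Tet2 and Tet3, and 3 of its parent TET_WT) served for comparison. The question was how far loss of DNA methylation alters open chromatin before cells leave the naive state.

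Dnmt3a and Dnmt3b place methyl groups on cytosines of CpG dinucleotides and Dnmt1 copies the pattern to the new strand when DNA is replicated. Methylation of CpG-rich promoters keeps germline genes and 1 allele of imprinted genes silent, and some transcription factors, NRF1 among them, bind their motif poorly when it is methylated. Naive cells in 2i carry little methylation over most of the genome but largely keep it at imprinted control regions. ATAC-seq reads out accessibility by the insertions a transposase makes into open DNA. In bulk cells, a site open in more cells and a site more open per cell cannot be told apart.

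The libraries were similar in depth between the lines and shallow per tile. DNMT_KO libraries held 6270986, 5146253 and 5146251 reads in all tiles, and DNMT_WT libraries held 6113989, 5129083 and 7620098. The median tested tile had 11, 9 and 9 reads in DNMT_KO, against 10, 8 and 13 reads in DNMT_WT. DNMT_KO replicates 2 and 3 had nearly the same total, but their reads per tile differed beyond counting noise (chi-square of 1.06 per tile over 101443 tiles, where counting noise alone gives about 1), so they were kept as separate libraries. Accessibility could not check the genotype. Dnmt1 drew 42.5, 42.0 and 51.1 RPM (reads normalised to the autosomal total of the library) over its length in DNMT_KO, against 40.4, 45.8 and 41.9 in DNMT_WT. Dnmt3a drew 74.9, 74.9 and 79.4 RPM in DNMT_KO, against 76.0, 73.7 and 90.2 in DNMT_WT. Dnmt3b drew 25.5, 21.3 and 20.9 RPM in DNMT_KO, against 21.3, 20.8 and 19.1 in DNMT_WT. No tile of the 3 genes with at least 20 DNMT_WT reads (22, 42 and 6 tiles) fell below 25% of the parental reads, so no large deletion showed at this resolution and the labels were taken as given. The promoter tiles of the 3 genes differed by 0.17 ± 0.25, -0.16 ± 0.27 and 0.48 ± 0.30 (log2 RPKM ± SE, DNMT_KO minus DNMT_WT) with overlapping libraries. Leaving out each library in turn gave 0.09 to 0.28 for Dnmt1, -0.45 to 0.08 for Dnmt3a and 0.13 to 0.74 for Dnmt3b.

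No single tile differed between the lines past the threshold. Promoters of maternally methylated imprinted genes, promoters with the NRF1 motif and the clustered protocadherin genes are described in most detail. Methylation is known to act on them in other settings, but this emphasis was set with their values known. The promoters below are those of imprinted genes described next, printed so that their CpG sites, the substrate of the missing enzymes, can be seen. They are RefSeq sequences of GRCm38.p6 from 250 bases before to 50 bases after the gene's start, 300 bases each, with CpG in capitals. They come from chr7:60005150-60005449 on the minus strand (Snrpn, 7 CpG), chr7:143296498-143296797 on the minus strand (Kcnq1ot1, 9 CpG), chr10:13090582-13090881 on the plus strand (Plagl1, 26 CpG) and chr8:122848124-122848423 on the plus strand (Cdh15, 7 CpG).
Snrpn: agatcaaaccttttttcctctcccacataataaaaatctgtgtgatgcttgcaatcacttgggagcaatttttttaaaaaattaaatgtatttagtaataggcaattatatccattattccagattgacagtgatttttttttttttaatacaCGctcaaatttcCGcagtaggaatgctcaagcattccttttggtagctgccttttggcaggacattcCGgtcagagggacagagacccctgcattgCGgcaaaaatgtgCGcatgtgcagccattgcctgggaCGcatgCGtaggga
Kcnq1ot1: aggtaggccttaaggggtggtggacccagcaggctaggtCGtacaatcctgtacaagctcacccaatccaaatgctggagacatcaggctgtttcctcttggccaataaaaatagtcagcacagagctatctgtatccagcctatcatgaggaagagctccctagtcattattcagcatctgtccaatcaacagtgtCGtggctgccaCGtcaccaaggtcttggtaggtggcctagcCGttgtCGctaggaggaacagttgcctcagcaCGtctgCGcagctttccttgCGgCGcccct
Plagl1: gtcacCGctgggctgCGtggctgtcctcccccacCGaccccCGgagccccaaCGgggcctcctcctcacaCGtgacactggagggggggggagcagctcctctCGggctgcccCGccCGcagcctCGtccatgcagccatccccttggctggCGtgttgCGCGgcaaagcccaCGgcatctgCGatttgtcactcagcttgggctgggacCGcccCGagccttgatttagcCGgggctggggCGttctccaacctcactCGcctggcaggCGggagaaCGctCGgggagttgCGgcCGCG
Cdh15: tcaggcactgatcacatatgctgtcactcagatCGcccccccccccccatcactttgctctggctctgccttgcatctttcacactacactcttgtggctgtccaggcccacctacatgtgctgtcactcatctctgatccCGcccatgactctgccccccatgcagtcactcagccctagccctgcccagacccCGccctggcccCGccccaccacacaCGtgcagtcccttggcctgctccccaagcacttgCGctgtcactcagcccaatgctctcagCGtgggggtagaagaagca

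Most promoters of genes with maternally inherited methylation had a higher value in DNMT_KO, by less than a single tile could show. In these genes the copy from the egg is methylated at a promoter or control region. Most of them are expressed from the copy from sperm, and some, Igf2r among them, from the copy from the egg. Of 24 such genes, 22 could be measured, in 20 promoter tiles. None was called at an adjusted p under 0.05 (lowest 0.989, limma with Benjamini-Hochberg adjustment over all tiles), so no single promoter of the list is shown to differ. The difference was above 0 in 17 tiles and below 0 in 3, with a median of 0.23 log2 RPKM, where 47.6% of the 18499 tiles that hold the most accessible promoter of a gene were above 0 and their median was 0.00. In 5 of the 20 tiles all 3 DNMT_KO libraries were above all 3 DNMT_WT libraries, and in 1 all were below. Over all 20396 promoter tiles these shares were 4.44% above and 4.7% below. Some other lists were uneven too. Housekeeping controls had 8 tiles above and 2 below 0, neuroectoderm genes 2 above and 12 below, and fibroblast genes 3 above and 11 below. Whether the imprinted list was more uneven than other lists was not tested.

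Snrpn encodes a small nuclear ribonucleoprotein and lies in the imprinted region of Prader-Willi and Angelman syndromes. Its promoter tile at chr7:60004001-60006000 had 36, 37 and 39 reads in DNMT_KO, against 24, 18 and 26 reads in DNMT_WT. Every DNMT_KO library was above every DNMT_WT library, with 1.63 ± 0.12 log2 RPKM in DNMT_KO and 0.86 ± 0.12 in DNMT_WT (SD, n = 3 each), a difference of 0.77 ± 0.30 (SE, 95% interval 0.13 to 1.41). Peg13 is a non-coding RNA from a maternally methylated promoter. Its start is not in the promoter table, so the tile at its more accessible end was used, chr15:72810001-72812000, which had 15, 28 and 27 reads in DNMT_KO, against 12, 10 and 13 reads in DNMT_WT. The groups did not overlap, and the difference was 0.91 ± 0.33 (95% interval 0.20 to 1.62). Plagl1 encodes a zinc finger factor that restrains growth. Its tile at chr10:13090001-13092000 had 28, 25 and 26 reads in DNMT_KO, against 23, 16 and 19 reads in DNMT_WT, with no overlap and a difference of 0.52 ± 0.27, which was 0.34 without DNMT_WT replicate 3. Kcnq1ot1 is the long antisense RNA that silences its neighbours on the paternal copy. Its tile at chr7:143296001-143298000 had 19, 23 and 28 reads in DNMT_KO, against 16, 13 and 23 reads in DNMT_WT. On the normalised scale the libraries did not overlap and differed by 0.45 ± 0.30, with an interval (-0.19 to 1.10) that includes 0. The fifth was Igf2r, the receptor that clears insulin-like growth factor 2, whose control region lies in an intron away from the tile measured here. Its promoter tile had 30, 20 and 20 reads in DNMT_KO, against 17, 12 and 22 reads in DNMT_WT. The difference was 0.56 ± 0.26, and 0.33 without DNMT_KO replicate 1.

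Other members gave differences within the spread of libraries or of the opposite sign. The tile that Peg10 and Sgce share had 22, 15 and 21 reads in DNMT_KO, against 13, 6 and 22 reads in DNMT_WT, which in RPM was 3.60, 2.99 and 4.18 in DNMT_KO, against 2.18, 1.201 and 2.96 in DNMT_WT. The libraries were thus narrowly apart in RPM, but overlapped on the normalised scale (0.72 ± 0.33, and 0.40 without DNMT_WT replicate 2). Nap1l5 had 16, 24 and 23 reads in DNMT_KO, against 14, 14 and 14 reads in DNMT_WT, and its normalised libraries still overlapped (0.54 ± 0.34). The tile shared by Peg3, a zinc finger gene, and Usp29 had 26, 37 and 35 reads in DNMT_KO, against 29, 25 and 29 reads in DNMT_WT (0.25 ± 0.25). Mest was at 0.03, Gnas at -0.27 and Grb10 at -0.28, all with overlapping libraries. Cdh15, a muscle cadherin, had the lowest difference of the list, with 9, 14 and 13 reads in DNMT_KO, against 17, 19 and 29 reads in DNMT_WT. All DNMT_KO libraries were below all DNMT_WT libraries there (-0.76 ± 0.25), and at day 2 the tile differed by -0.10.

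Summed over the 20 tiles, the imprinted list took 1.30, 1.45 and 1.35 of every 1000 promoter reads in DNMT_KO, against 1.11, 1.09 and 1.07 in DNMT_WT. The groups did not overlap and the log2 ratio was 0.33. Leaving out each library in turn gave 0.28 to 0.36. On the RPM scale the ratio was 0.45 but the groups overlapped (64.6, 96.4 and 94.9 in DNMT_KO, against 66.4, 57.5 and 63.8 in DNMT_WT). DNMT_KO replicate 1, which had the lowest share of reads in promoters, was the library that overlapped. At day 2, in other libraries of the same lines, the list took 1.31, 1.22 and 1.33 of 1000 promoter reads in DNMT_KO. DNMT_WT had 0.99, 1.07 and 1.17, again with no overlap (log2 ratio 0.26). This was not particular to the imprinted list at day 2. DNMT_KO was also above without overlap for germline genes (0.27), paternally methylated domains (0.37) and haematopoietic regulators (0.20). It was below without overlap for neuroectoderm (-0.13) and fibroblast genes (-0.25). At day 0 the libraries of those lists overlapped. For the imprinted list in the TET family at day 0, the log2 ratio of TET_KO to TET_WT was 0.13 with overlapping libraries.

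**Figure D1:**
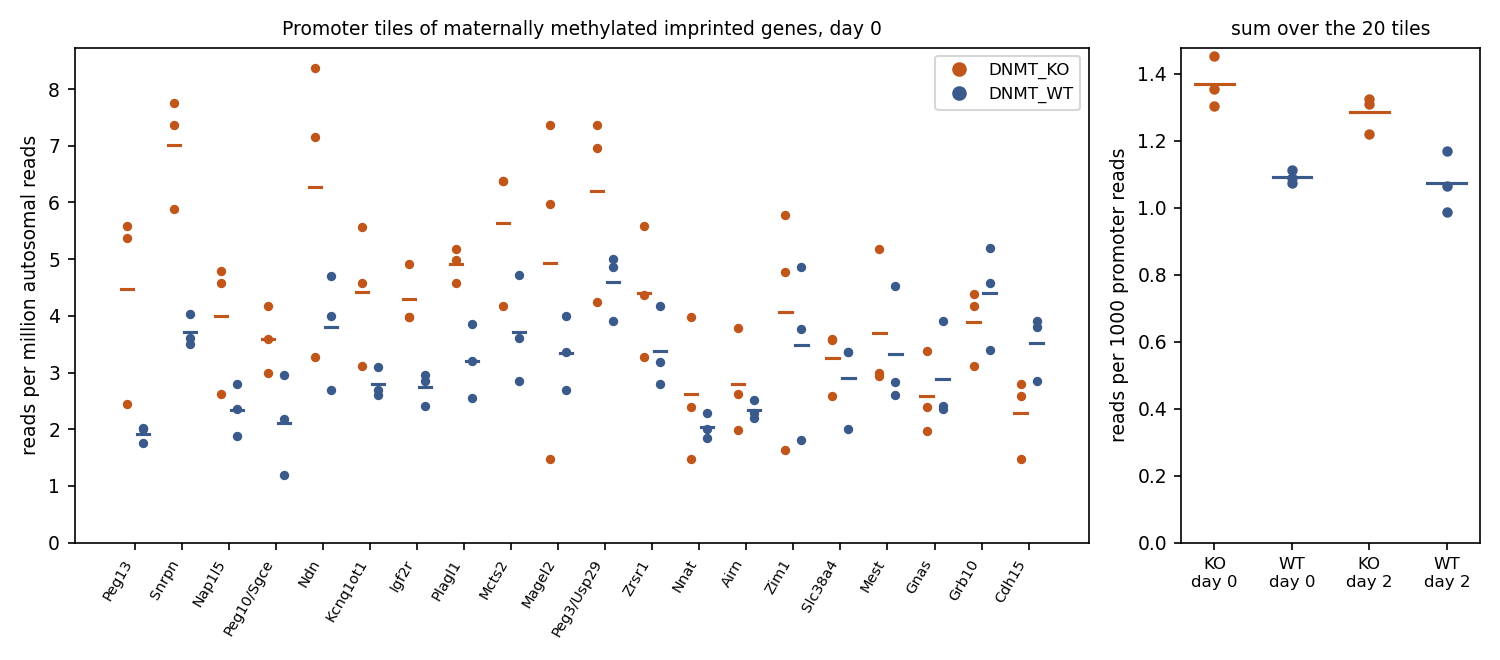
Left, RPM in the 20 promoter tiles of maternally methylated imprinted genes at day 0 (vertical axis, linear from 0), with each library as a point, the mean as a bar, DNMT_KO in orange and DNMT_WT in blue. Right, their sum as reads per 1000 promoter reads, where the 3 DNMT_KO libraries (1.30 to 1.45 at day 0) were above the 3 DNMT_WT libraries (1.07 to 1.11) at both days.

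The other lists, of germline, pluripotency and lineage genes, held no called promoter tile either. Of 7 measured genes in paternally methylated domains, 4 were above 0 and 3 below, with a median of 0.07 and no tile apart. Germline genes silenced by promoter methylation in somatic cells were 12 above and 16 below 0 (28 tiles, median -0.02), with 2 tiles apart in each direction and none called (lowest adjusted p 0.989). Ddx4, the germ cell RNA helicase, had 10, 9 and 15 reads in DNMT_KO, against 8, 2 and 11 reads in DNMT_WT, and was apart on the normalised scale. The difference was 1.09 ± 0.52, but 0.49 without DNMT_WT replicate 2, the library with 2 reads, and 0.58 with a pseudocount of 5 reads. Syce1, a protein of the synaptonemal complex, had 13, 15 and 18 reads in DNMT_KO, against 9, 8 and 12 reads in DNMT_WT (0.71 ± 0.31). Catsper3, a sperm calcium channel subunit, had 3, 1 and 4 reads in DNMT_KO, against 5, 9 and 9 reads in DNMT_WT (-1.47 ± 0.69, and -0.92 without DNMT_KO replicate 2). Dazl, the germ cell RNA-binding protein often used as a readout of promoter demethylation, had 25, 41 and 30 reads in DNMT_KO, against 43, 21 and 38 reads in DNMT_WT. The difference was -0.01 ± 0.24 with a 95% interval of -0.53 to 0.51, and its sign was positive without quantile normalisation (0.12).

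Genes that define the naive state, the labelled cell type, were open in both lines. The 20 naive pluripotency promoters averaged 5.997 RPM per tile in DNMT_KO and 5.54 in DNMT_WT, the 10 core pluripotency promoters 4.84 in DNMT_KO and 4.60 in DNMT_WT, and all promoters 3.18 in DNMT_KO and 2.93 in DNMT_WT. Housekeeping controls averaged 5.67 in DNMT_KO and 4.89 in DNMT_WT, so a level of this size is not particular to naive genes. Of the naive list 11 tiles were above and 9 below 0 (median 0.03) with none apart. Nanog, the homeobox factor of naive cells, had 28, 32 and 32 reads in DNMT_KO, against 49, 21 and 44 reads in DNMT_WT, which spread more widely than the knockout libraries and held them within their range (-0.14 ± 0.28). Zfp42, also called Rex1, had 52, 47 and 63 reads in DNMT_KO, against 43, 36 and 80 reads in DNMT_WT (0.19 ± 0.22). Klf4, a Kruppel-like factor, had 35, 47 and 54 reads in DNMT_KO, against 47, 30 and 46 reads in DNMT_WT (0.21 ± 0.23). The core list was split 5 and 5 with a median of 0.00.

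Among formative epiblast genes, which open as cells leave the naive state, 10 tiles were above and 6 below 0 (median 0.15). These promoter tiles averaged 4.48 RPM in DNMT_KO and 3.91 in DNMT_WT, above the level of all promoters in both lines. Foxd3, a forkhead factor, had 25, 24 and 37 reads in DNMT_KO, against 16, 12 and 21 reads in DNMT_WT, and was the 1 tile apart (0.83 ± 0.29). Fgf5, a growth factor of the epiblast, had 13, 10 and 12 reads in DNMT_KO, against 27, 17 and 16 reads in DNMT_WT (-0.64 ± 0.29), and its normalised libraries overlapped. Neuroectoderm promoters had 2 tiles above and 12 below 0 (median -0.23). Nes, the intermediate filament nestin, was one of the 2 above 0, with 28, 22 and 25 reads in DNMT_KO, against 14, 13 and 17 reads in DNMT_WT (0.81 ± 0.27, apart). Pou3f2, a neural POU factor, had 18, 30 and 31 reads in DNMT_KO, against 39, 39 and 42 reads in DNMT_WT (-0.61 ± 0.27, apart, and -0.37 without DNMT_KO replicate 1). The neuroectoderm median at day 2 was -0.17.

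Markers of other cell types that the cultures could hold, formative and neuroectoderm genes aside, were near the level of promoters in general or below it in both lines. Fibroblast genes, which would mark feeder cells, had 3 tiles above and 11 below 0 (median -0.10), and their promoter tiles averaged 2.67 RPM in DNMT_KO and 2.57 in DNMT_WT. Col6a2, a collagen chain, had 5, 3 and 4 reads in DNMT_KO, against 9, 6 and 18 reads in DNMT_WT (-1.17 ± 0.42, apart). Primitive endoderm genes had 4 tiles above and 7 below 0 (median -0.25). Neuroectoderm promoter tiles averaged 3.53 RPM in DNMT_KO and 3.52 in DNMT_WT, above all promoters (3.18 in DNMT_KO and 2.93 in DNMT_WT). Trophoblast genes were 5 above and 5 below 0 (median -0.01), primitive streak and mesoderm genes 6 above and 9 below (median -0.06), and haematopoietic regulators 8 above and 10 below (median -0.21). Two-cell-like genes stayed near the genome average, at 0.818 RPM per promoter tile in DNMT_KO and 0.661 in DNMT_WT, where a tile of the genome averaged 0.812. Their tiles hold too few reads for a change to be detectable. Genes of the methylation machinery were 11 above and 7 below 0 (median 0.19), genes of Polycomb and H3K9 methylation 8 above and 9 below (median -0.04), and housekeeping controls 8 above and 2 below (median 0.12). No gene of the lists named here was called in its promoter tile.

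Promoters were next sorted by sequence, since CpG is what the missing enzymes methylate. Promoter tiles whose 300-base window held 0 to 2 CpG were apart upwards in 3.75% and downwards in 4.52%, those with 3 to 5 CpG in 3.11% and 5.64%, and those with 6 to 11 CpG in 4.26% and 4.76%. With 12 to 19 CpG the shares were 4.11% upwards and 5.71% downwards, with 20 to 29 CpG 5.22% and 4.90%, and with 30 or more CpG 6.61% and 3.51%. The median differences stayed between -0.04 and 0.04 log2 RPKM. The class with 30 or more CpG had the highest upward share, against 4.44% of all promoters, and this difference of shares was not tested.

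The NRF1 motif, whose binding depends on an unmethylated site, was searched as GCGCA, any base and GCGC in a row, on both strands of the same windows. It occurred in 1149 of 16462 windows (6.98%), on 1053 promoter tiles. Of these tiles 85 (8.07%) were apart with DNMT_KO above and 25 (2.37%) with DNMT_KO below, with a median of 0.05. Since the motif itself holds CpG, the comparison was repeated among promoters with at least 20 CpG. With the motif 8.70% of 828 tiles were apart upwards and 1.93% downwards, and without it 5.40% of 5003 tiles upwards and 4.74% downwards. The CpG number was alike in both sets (median 29 with the motif and 28 without), and the median level was 0.96 log2 RPKM with it and 0.89 without. The day 2 libraries gave shares of 8.45% upwards and 2.78% downwards with the motif, 6.80% and 5.64% without it, and 5.51% and 6.33% among all promoter tiles. The day 0 medians of the difference were 0.05 log2 RPKM with the motif and 0.01 without, and summed reads of motif tiles per 1000 promoter reads overlapped between the lines (78.6, 83.4 and 84.8 in DNMT_KO, against 77.8, 76.4 and 80.4 in DNMT_WT). In the TET family at day 0 the same sum was 81.5 ± 1.77 in TET_KO and 78.7 ± 0.367 in TET_WT (SD, n = 3 each), with no overlap and a log2 ratio of 0.05. The palindrome of TCTCG and CGAGA in a row, bound by BANP, was in 119 windows (0.723%), on 106 tiles with a median of 0.12, of which 4 (3.77%) were apart upwards and 3 (2.83%) downwards, against 4.44% and 4.7% of all promoter tiles. Summed over these tiles, it took 9.10, 9.16 and 9.31 of 1000 promoter reads in DNMT_KO, against 8.91, 8.54 and 8.72 in DNMT_WT, with no overlap and a log2 ratio of 0.07. At day 2 that ratio was 0.00 with overlapping libraries. The CRE motif TGACGTCA was in 400 windows (2.43%), and of its 374 tiles 6.68% were apart upwards and 6.15% downwards. The E-box CACGTG was in 1318 windows (8.006%), and of its 1272 tiles 5.35% were apart upwards and 4.17% downwards. The sums of both motifs overlapped between the DNMT lines. Among promoters with at least 20 CpG, 8.51% of 235 CRE tiles were apart upwards and 5.53% downwards, against 5.64% and 4.28% without CRE. For the E-box these shares were 6.87% and 3.09% of 713 tiles, and for the BANP motif 4.71% and 0% of 85 tiles. The upward share with NRF1 was thus close to that with CRE. Differences of shares between motifs, or with and without a motif, were not tested.

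Both promoters below carry the NRF1 motif and were chosen after their values were seen, among motif promoters that were apart upwards. They are printed to show where the motif, in capitals, lies among the other CpG sites. They come from chr4:135353097-135353396 on the minus strand (Srrm1, 40 CpG) and chr5:147429906-147430205 on the plus strand (Pan3, 31 CpG). The marked Srrm1 match reads on the opposite strand. A further Srrm1 match begins with the last GCGC of the marked one, continues in lower case and reads the same on both strands.
Srrm1: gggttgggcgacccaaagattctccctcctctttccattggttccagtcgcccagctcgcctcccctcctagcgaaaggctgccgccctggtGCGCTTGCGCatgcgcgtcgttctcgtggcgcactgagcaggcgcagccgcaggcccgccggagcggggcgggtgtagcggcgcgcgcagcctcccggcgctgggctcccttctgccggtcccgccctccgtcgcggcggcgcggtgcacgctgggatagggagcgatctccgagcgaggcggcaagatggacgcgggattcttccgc
Pan3: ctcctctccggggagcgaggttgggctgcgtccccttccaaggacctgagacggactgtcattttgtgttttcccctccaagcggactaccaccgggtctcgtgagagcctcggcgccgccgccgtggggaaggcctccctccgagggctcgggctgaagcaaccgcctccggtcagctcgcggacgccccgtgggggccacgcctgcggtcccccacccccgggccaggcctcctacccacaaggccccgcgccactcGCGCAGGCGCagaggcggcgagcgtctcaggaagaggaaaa

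Srrm1 encodes a splicing coactivator. Its promoter tile had 30, 41 and 42 reads in DNMT_KO, against 23, 17 and 31 reads in DNMT_WT (0.71 ± 0.21). Pan3 encodes a subunit of a poly(A) nuclease. Its tile had 30, 40 and 33 reads in DNMT_KO, against 19, 14 and 28 reads in DNMT_WT (0.82 ± 0.25). Neither passed the threshold (adjusted p 0.989 for each, limma), and at day 2 the differences were 0.30 and -0.12 with overlapping libraries.

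Across all tested tiles the comparison gave no call. Tested were 129371 tiles, the highest 10% by mean accessibility with every promoter tile added, of which 15.8% held a promoter. At an adjusted p under 0.05, 0 tiles were higher and 0 were lower in DNMT_KO (0% each). Voom on the recovered reads also called 0, and a limma fit of the 6 libraries alone called 18, all of them promoter tiles with a mean under 5 reads. At an unadjusted p under 0.05, 3153 tiles (2.44%) were higher and 3024 (2.34%) lower, together 4.77%. All 3 DNMT_KO libraries lay above all 3 DNMT_WT libraries in 6210 tiles (4.8%) and below them in 6299 (4.87%). The difference had a median size of 0.29 log2 RPKM, and the 1st and 99th percentiles were -1.11 and 1.11. The 95% interval of a median tile, without adjustment, reached 0.90 to either side. A call at such a tile needed a larger difference than that, because p-values were adjusted over 129371 tiles. Gene body and intergenic tiles had 4.53% and 4.46% of tiles at an unadjusted p under 0.05, and promoter tiles 6.21%, with 605 higher and 661 lower. Promoter tiles alone were tested whatever their level, and 6232 of them lay below the limit of the highest 10%. The part of this in the higher share was not tested.

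The same fit made calls in other contrasts. DNMT_WT at day 2 against day 0 gave 169 tiles higher (0.131%) and 964 lower (0.745%). DNMT_KO against DNMT_WT at day 2 gave 1 tile higher (0.000773%) and 2 lower (0.00155%), all of them promoter tiles with a mean under 5 reads. TET_KO against TET_WT at day 0, in a fit of its own, gave 17 higher (0.0131%) and 10 lower (0.00773%). The 3 libraries per group could therefore show a change of the size seen in the first of these.

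**Figure D2:**
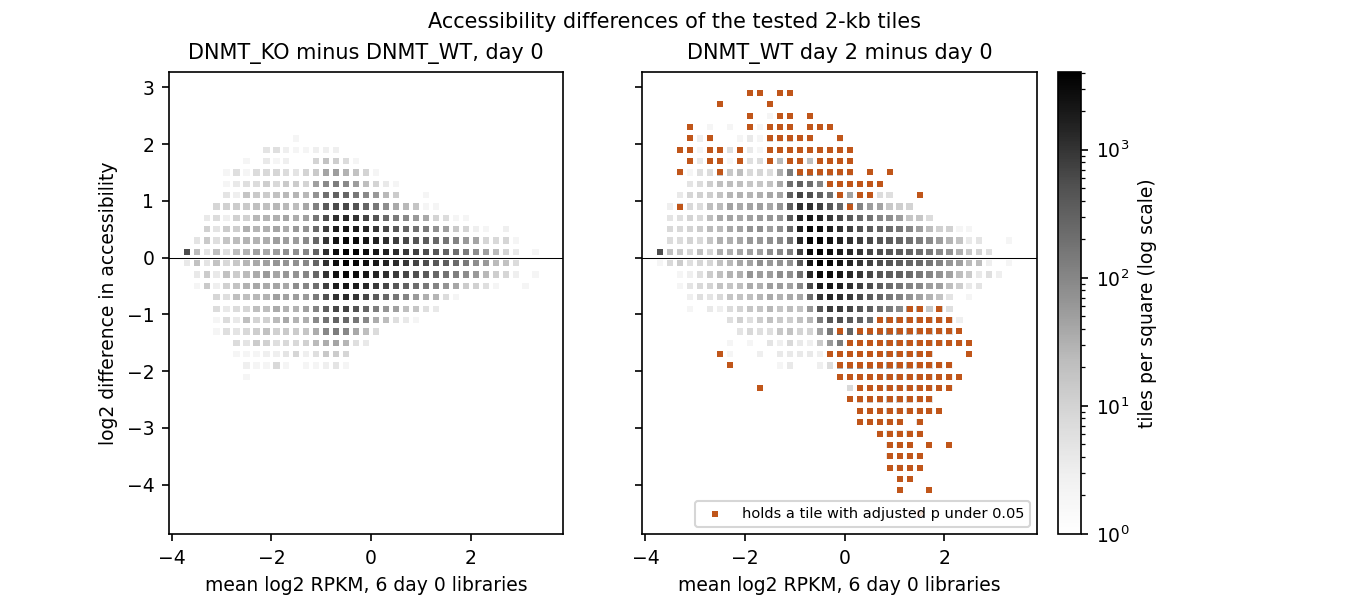
Log2 difference in accessibility (vertical axis) against mean log2 RPKM of the 6 day 0 libraries (horizontal axis) for the 129371 tested tiles, as counts of tiles per square on a log grey scale. DNMT_KO minus DNMT_WT (left) holds no tile with an adjusted p under 0.05, and DNMT_WT day 2 minus day 0 (right) holds 1133, in the squares marked orange, of which 964 lie below 0.

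The tile nearest to a call was the promoter tile of Rph3al, an effector of Rab GTPases in exocytosis, at chr11:75924001-75926000. It had 1 read in each DNMT_KO library, against 9, 5 and 7 reads in DNMT_WT, a difference of -2.47 ± 0.30 at an adjusted p of 0.0890 (limma). The same tile at day 2 had 6, 4 and 5 reads in DNMT_KO, against 7, 3 and 4 reads in DNMT_WT, and the difference was -0.18. The next was Gm13286 with 1, 0 and 1 reads in DNMT_KO, against 6, 3 and 4 reads in DNMT_WT (-1.88 ± 0.25, adjusted p 0.106). These tiles passed the filter because they hold a promoter, not because they were open. Outside promoters the lowest p belonged to a gene body tile near Rhcg, an ammonium transporter, at chr7:79606001-79608000. It had 8, 7 and 6 reads in DNMT_KO, against 20, 15 and 21 reads in DNMT_WT (-1.30 ± 0.24, unadjusted p 7.6e-05). Its day 2 libraries had 13, 12 and 14 reads in DNMT_KO, against 19, 16 and 19 reads in DNMT_WT (-0.76).

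Values were also averaged over the tested tiles nearest to each promoter, within 50 kb, which lowers the error of a gene. Of 19237 such neighbourhoods (median 3 tiles), 0 were higher and 0 lower at an adjusted p under 0.05 (0% each, lowest 0.308, limma). At an unadjusted p under 0.05, 643 were higher (3.34%) and 531 lower (2.76%). The 95% interval of a median neighbourhood reached 0.52 log2 RPKM to either side. Masp2, a serine protease of the lectin pathway of complement, had 8 tiles with a mean of 0.09, -0.01 and 0.20 log2 RPKM in DNMT_KO, against -0.73, -0.50 and -0.46 in DNMT_WT. All 3 knockout libraries were above the parental ones (0.66 ± 0.12, adjusted p 0.692), and at day 2 the difference was 0.43. Slc26a10, of a family of anion transporters, had 12 tiles with a mean of -0.55, -0.34 and -0.46 in DNMT_KO, against 0.15, -0.13 and 0.18 in DNMT_WT (-0.51 ± 0.10, adjusted p 0.692), and at day 2 the difference was 0.05. These 2 were chosen after their values were seen, among the neighbourhoods with the lowest p. For the maternally methylated list 16 neighbourhoods were above and 6 below 0, with a median of 0.18. Of all 19237 neighbourhoods, 9446 were above and 9341 below 0, with a median of 0.00. These averages can include the promoter tiles counted above, so they are not a separate readout of the list.

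Reads were then summed over longer windows, a step chosen after no single tile had passed. Of 23826 windows of 100 kb, 1 was higher (0.0042%) and 1 lower (0.0042%) in DNMT_KO. The higher one, chr18:37700001-37800000, holds most of the Pcdhg genes, clustered protocadherins whose promoters are chosen at random in each neuron and which encode cell surface recognition proteins. It had 493, 352 and 348 reads in DNMT_KO, against 251, 263 and 412 reads in DNMT_WT. In RPM this was 80.6, 70.1 and 69.2 in DNMT_KO, against 42.1, 52.7 and 55.5 in DNMT_WT, with no overlap. The difference was 0.52 ± 0.11 (log2, adjusted p 0.0445, limma). The day 2 difference was 0.20 (adjusted p 0.458), in a contrast that called 10 windows of 100 kb higher (0.042%) and 11 lower (0.0462%). Leaving out libraries gave 0.40 to 0.59, but the adjusted p was 0.0399 to 0.341, and the call was kept only without DNMT_WT replicate 3. It was lost without each of the other 5 libraries.

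The Pcdhg genes contain this window and make up much of the protocadherin reads, so their values and those of all clustered genes restate it in part, while the Pcdha and Pcdhb genes lie outside it. All 56 clustered genes took 286, 269 and 283 RPM in DNMT_KO, against 206, 238 and 230 in DNMT_WT (log2 ratio 0.31). Leaving out each library gave 0.25 to 0.36. The 12 Pcdha genes took 88.0, 74.7 and 84.3 RPM in DNMT_KO, against 64.6, 79.5 and 68.3 in DNMT_WT, which overlapped. The 22 Pcdhb genes took 57.6, 56.0 and 54.3 in DNMT_KO, against 40.8, 42.2 and 47.7 in DNMT_WT (log2 ratio 0.36), and the 22 Pcdhg genes 141, 138 and 144 in DNMT_KO, against 100, 117 and 114 in DNMT_WT (log2 ratio 0.35). Neither pair of groups overlapped. At day 2 the log2 ratio was 0.06 for all clustered genes, 0.04 for Pcdhb and 0.17 for Pcdhg, the last without overlap. TET_KO was also above TET_WT at day 0 over all clustered genes (0.20), over Pcdha (0.39) and over Pcdhb (0.33). For Pcdhg the TET libraries overlapped (0.04). Ratios above 0 also occurred outside the genes. Windows of 50 kb downstream of the cluster had log2 ratios of 0.27, 0.11, 0.44 and 0.20, and those upstream 0.17, 0.16, -0.01 and -0.62 in genomic order. The libraries were apart only in the windows at 0.44 and -0.62, in opposite directions, and overlapped in the others. On chromosome 18 as a whole DNMT_KO background tiles were also slightly above those of DNMT_WT, as given with the chromosomes, and the part of this in the window was not tested.

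**Figure D3:**
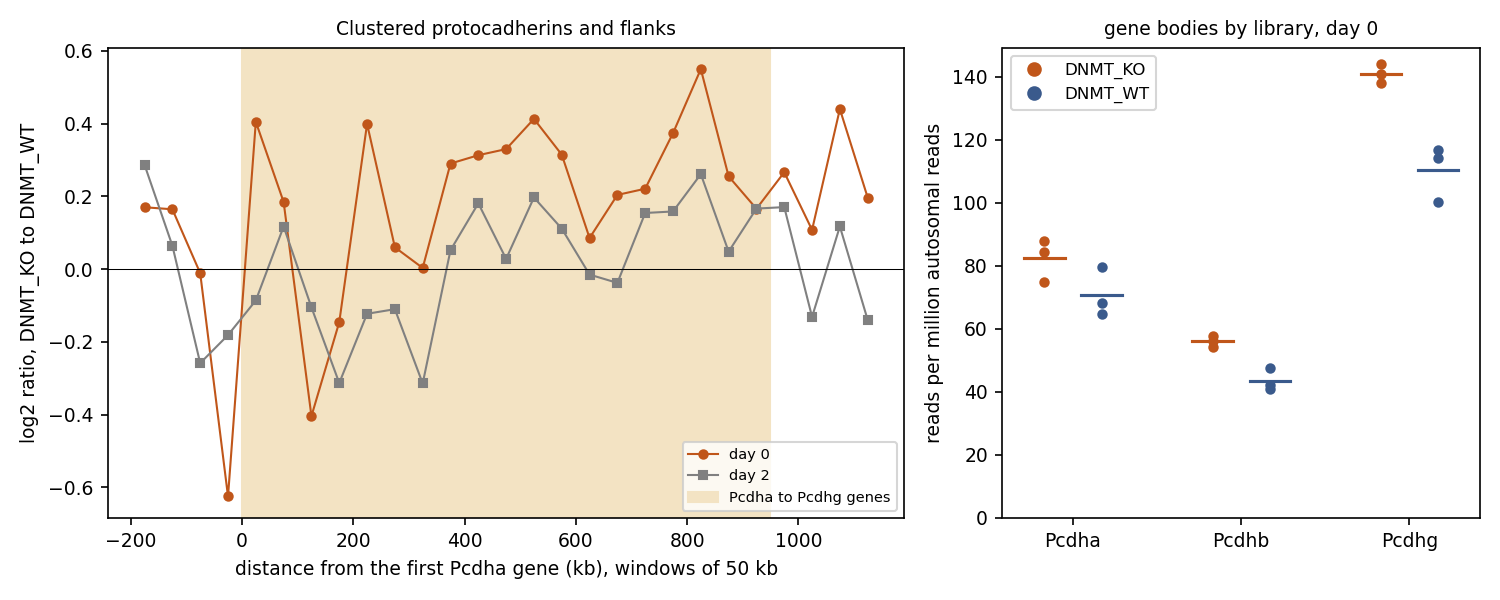
Left, log2 ratio of DNMT_KO to DNMT_WT in RPM in windows of 50 kb across the clustered protocadherins (shaded) and their flanks, plotted by distance from the first Pcdha gene in kb, for day 0 (orange) and day 2 (grey). Right, RPM in the gene bodies of each group of genes by library (points) with the mean (bars), where DNMT_KO libraries (orange) lie above DNMT_WT libraries (blue) for Pcdhb and Pcdhg and overlap them for Pcdha.

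The lower window of 100 kb, chr3:138300001-138400000, holds Adh6a and Adh6b, alcohol dehydrogenase genes. It had 116, 103 and 112 reads in DNMT_KO, against 201, 189 and 275 reads in DNMT_WT. In RPM this was 18.97, 20.53 and 22.28 in DNMT_KO, against 33.72, 37.84 and 37.04 in DNMT_WT. The libraries did not overlap, and the difference was -0.71 ± 0.15 (adjusted p 0.0445, limma). At day 2 the difference was 0.04 (adjusted p 0.949), and the test of the day 2 minus day 0 difference gave an adjusted p of 0.629. Without each library in turn the value was -0.77 to -0.64 and the adjusted p 0.0698 to 0.319, so the call was lost each time.

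Of 233390 windows of 10 kb, 0 were higher (0%) and 1 was lower (0.000428%) in DNMT_KO. It lies at chr9:124420001-124430000, near the end of the assembled chromosome, over the predicted genes 4930526I15Rik, Gm20783 and LOC108167694. It had 29, 62 and 69 reads in DNMT_KO, against 134, 94 and 119 reads in DNMT_WT, or 4.74, 12.4 and 13.7 RPM in DNMT_KO, against 22.5, 18.8 and 16.0 in DNMT_WT. The libraries did not overlap and the difference was -1.12 ± 0.20 (adjusted p 0.0474, limma). Without DNMT_KO replicate 1, the lowest library, it was -0.70 (adjusted p 0.651), and the call was also lost without DNMT_WT replicate 1 (adjusted p 0.470) or 2 (0.439). This was the 1 window of the 3 called here that was also called at day 2 (1 lower window, 0.000428%, at -1.58 ± 0.20, adjusted p 1.44e-06), where it had 59, 38 and 43 reads in DNMT_KO, against 124, 119 and 96 reads in DNMT_WT. Near-identical sequence elsewhere in the genome could share its reads, and no source used here says how such reads were placed. Windows of 20 kb gave 0 higher and 0 lower of 117922 (0% each, lowest adjusted p 0.119), and 2 lower (0.0017%) at day 2.

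Other gene families showed overlapping libraries. The 39 Hox genes, Polycomb targets of embryonic patterning, took 282, 268 and 307 RPM in DNMT_KO, against 247, 228 and 286 in DNMT_WT (log2 ratio 0.17). The genes of cytoplasmic ribosomal proteins took 621, 674 and 792 RPM in DNMT_KO, against 573, 518 and 695 in DNMT_WT (0.22). The log2 ratio was 0.05 for olfactory receptors, -0.05 for vomeronasal receptors and 0.05 for zinc finger genes.

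Pooled over whole classes, the lines also overlapped. Promoter tiles took 4.95%, 6.63% and 7.01% of autosomal reads in DNMT_KO, against 5.98%, 5.27% and 5.95% in DNMT_WT. The means were 6.20 ± 1.09% in DNMT_KO and 5.73 ± 0.40% in DNMT_WT (SD, n = 3 each, log2 ratio 0.11, exact permutation p 0.5, 2-sided). DNMT_KO replicate 1 had the lowest share of the 6 and replicates 2 and 3 the highest, so that the knockout libraries enclosed the parental ones. Without replicate 1 the log2 ratio was 0.25. Gene body tiles took 52.1%, 50.7% and 50.8% of reads in DNMT_KO, against 50.8%, 51.3% and 51.2% in DNMT_WT (log2 ratio 0.00, exact p 1). Intergenic tiles took 43.0%, 42.7% and 42.2% in DNMT_KO, against 43.2%, 43.4% and 42.9% in DNMT_WT (-0.02, exact p 0.2).

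Low-accessibility tiles, the lower 5 deciles of tiles with reads when ranked in the TET libraries at day 0, were examined for a general opening of closed chromatin. They took 34.97%, 32.0% and 31.2% of reads in DNMT_KO, against 34.3%, 35.1% and 33.6% in DNMT_WT. The means were 32.7 ± 1.99% in DNMT_KO and 34.3 ± 0.745% in DNMT_WT (log2 ratio -0.07, exact p 0.3), a lower mean in DNMT_KO within the spread of its libraries. The lowest decile took 4.24%, 3.70% and 3.60% in DNMT_KO, against 4.09%, 4.18% and 4.06% in DNMT_WT. The highest decile took 22.5%, 26.1% and 27.5% in DNMT_KO, against 23.9%, 22.3% and 24.7% in DNMT_WT (0.10, exact p 0.3). In its part outside promoters the shares were 18.02%, 19.9% and 21.0% in DNMT_KO, against 18.4%, 17.5% and 19.2% in DNMT_WT. The ninth decile was the 1 decile of the 10 whose libraries did not overlap, with 13.02%, 13.08% and 13.10% in DNMT_KO, against 12.64%, 12.80% and 12.88% in DNMT_WT (log2 ratio 0.03, exact p 0.1, the smallest that 3 against 3 libraries allow). DNMT_KO was above DNMT_WT in that decile at day 2 too (0.05). DNMT_KO replicates 2 and 3 had fewer reads in low tiles and more in high ones than any other library, while the highest-decile share of replicate 1 lay among those of the parental libraries.

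**Figure D4:**
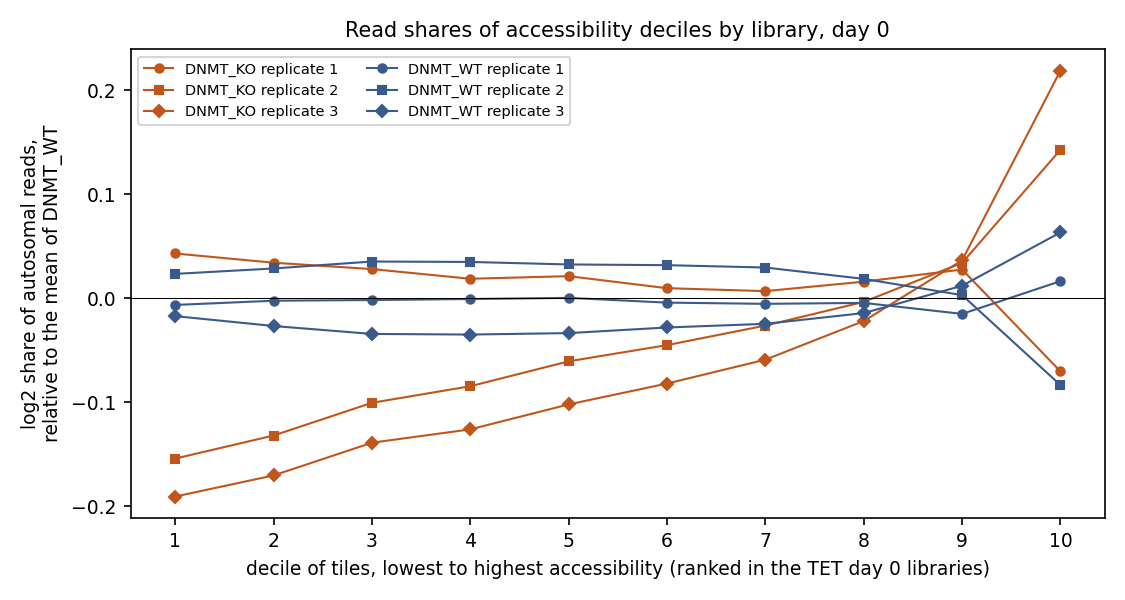
Log2 share of autosomal reads in each decile of tiles relative to the DNMT_WT mean (vertical axis), with deciles from the least to the most accessible along the horizontal axis and 1 line per library, DNMT_KO in orange and DNMT_WT in blue. DNMT_KO replicates 2 and 3 slope upwards across the deciles. DNMT_KO replicate 1 lies above all DNMT_WT libraries in deciles 1, 2 and 9 and within their range in the others.

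Read density in background tiles, those outside the tested set, was compared by chromosome, since a gained or lost copy in 1 line would move all tiles of a chromosome. Relative to the autosomal mean of a library, no chromosome differed by more than 0.10 log2 between the lines. Chromosome 14 stood at -0.10 ± 0.04 in DNMT_KO and -0.20 ± 0.05 in DNMT_WT (SD, n = 3 each, exact p 0.1, no overlap). Chromosome 18 stood at -0.08 ± 0.02 in DNMT_KO and -0.14 ± 0.03 in DNMT_WT, a difference of 0.06 (exact p 0.1, no overlap). At day 2 the differences were 0.03 for chromosome 14 and -0.08 for chromosome 18. At day 0 the other 17 autosomes overlapped on this measure. Between TET_KO and TET_WT at day 0, by comparison, the differences were -0.40 on chromosome 8, -0.31 on chromosome 14 and -0.21 on chromosome 6. By share of all autosomal reads at day 0, the DNMT libraries overlapped on chromosome 14. On that measure DNMT_KO was below DNMT_WT without overlap on chromosome 12 (log2 ratio -0.12), and above it on chromosomes 18 (0.05) and 19 (0.07).

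**Figure D5:**
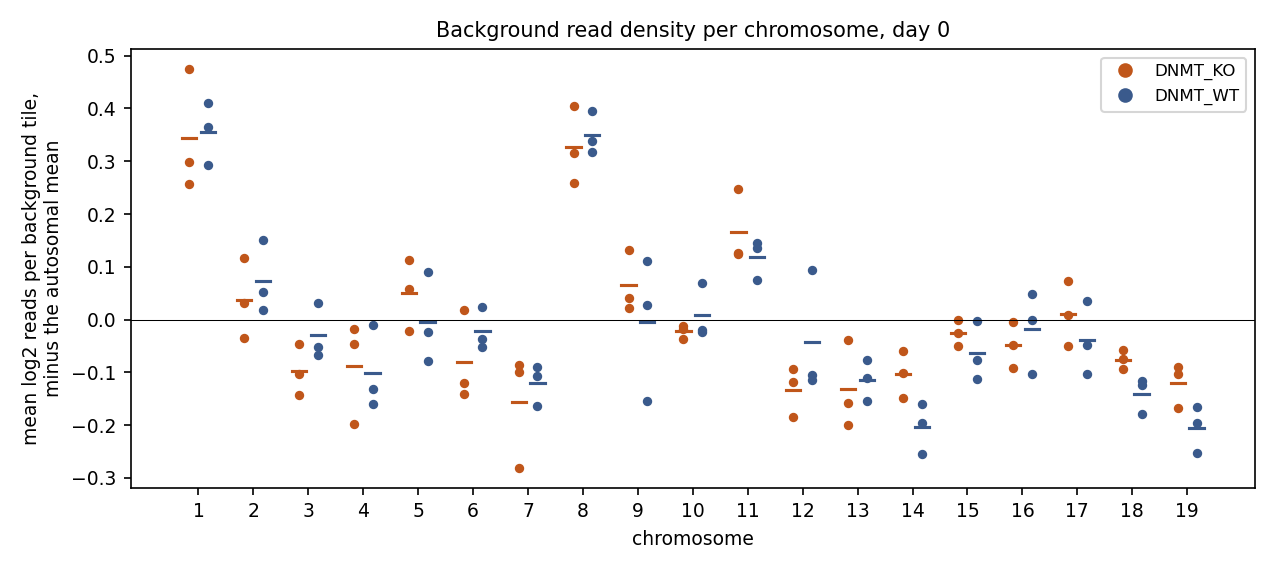
Mean log2 reads per background tile on each autosome minus the autosomal mean of the library (vertical axis), with each library as a point, DNMT_KO in orange left of DNMT_WT in blue. The points of the lines lie apart on chromosomes 14 and 18 and overlap on the other 17.

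The difference between the lines at day 0 was set against the same difference at day 2 and against that of the TET family. For day 2 minus day 0, 3 of 129371 tiles passed an adjusted p of 0.05 (limma interaction), and for DNMT minus TET at day 0, 6 tiles did, all of them lower. These were all promoter tiles and all but 1 had a mean under 5 reads. With values as deposited, the second contrast gave 4 tiles, 3 higher and 1 lower. No tile outside promoters gave a knockout difference in naive cells that differed from either past the threshold.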

How the data were processed

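Each library was made from 10000 cells by ATAC-seq, amplified over 13 PCR cycles according to the labels. The submitters' processing notes name Trim Galore 0.6.5, cutadapt 2.3, Bowtie2 2.4.1 and the GRCm38 build. No source used here gives the handling of duplicates or of transposase offsets. The authors deposited log2 RPKM per tile of 2 kb, per the file headers. Each value was a whole number of reads to within 0.01 read (100% of tiles), empty tiles being written as 0.9 read, and the recovered reads give the depths.

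Tested tiles were the highest 10% by mean (at least -0.70 log2 RPKM) and every promoter tile (6232 below that limit). After quantile normalisation they were fitted in limma 3.58.1 (on R 4.3.3, trend option), 1 mean for each of DNMT_KO and DNMT_WT at day 0 and day 2 (12 libraries), 2-sided, with Benjamini-Hochberg adjustment. As deposited, the median tile differed by 0.09 log2 RPKM, and differences are relative to that shift. Promoter starts came from the RefSeq promoter table of GRCm38.p6 (16462 genes) or, for 3058 genes, from the end more accessible by at least 0.5 log2 RPKM, and 1154 genes were left out. Of 262 genes in 16 lists, 238 had a promoter. Pooled values were compared by exact permutation over 6 libraries. Statistical steps were tested on simulated data.

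The comparison, the members and the lists were chosen with earlier results of these data known. The rule for named genes gave the targeted genes and called genes of lists or tiles. As nothing was called, other genes were named after their values were seen. Alternatives were the values as deposited, another pseudocount, tile filters, voom on recovered reads, thinned reads, other sets of libraries, the replicate number as a block and each library left out.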

Additional observations from a re-analysis of the deposited data

Results flagged for a closer look

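The tests of a difference between contrasts picked out 9 promoter tiles, each by limma with Benjamini-Hochberg adjustment over all tested tiles. Whether depth plays a part was not tested, but 8 of the 9 had a mean under 5 reads.

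For DNMT_KO against DNMT_WT at day 2 minus the same at day 0, the tile of Olfr1156, an olfactory receptor, gave -3.01 on the log2 scale (adjusted p 0.0454). It had 4, 3 and 2 reads in DNMT_KO at day 0, against 1, 0 and 2 in DNMT_WT, and at day 2 it had 1, 1 and 2 in DNMT_KO, against 4, 2 and 3 in DNMT_WT. Sprr2i, of the small proline-rich proteins of skin, gave -3.75 (adjusted p 0.0454, mean of 3.33 reads). Gm10310 gave 1.44 (adjusted p 0.0454, mean of 1.17 reads).

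For DNMT_KO against DNMT_WT minus TET_KO against TET_WT at day 0, the Nin tile at chr12:70102001-70104000 gave -3.20 (adjusted p 0.0251). Nin encodes ninein, a centrosomal protein, and its tile was the deepest of the 9, with a mean of 18.3 reads. It had 11, 6 and 5 reads in DNMT_KO, against 19, 14 and 25 in DNMT_WT (-1.41), and 30, 35 and 23 reads in TET_KO, against 27, 13 and 12 in TET_WT (1.78). The differences thus had opposite signs in the 2 families. Cyp2a22 gave -4.47 (adjusted p 0.00196), with 2, 0 and 0 reads in DNMT_KO, against 3, 3 and 7 in DNMT_WT, and 6, 5 and 4 in TET_KO, against 5, 0 and 1 in TET_WT. The others were 4933402N22Rik at -1.47 (adjusted p 0.00196), which had 0 reads in all 6 DNMT libraries at day 0, Gm10471 at -0.90 (adjusted p 0.0487), Prl3d2 at -2.49 (adjusted p 0.0264) and Gm19470 at -2.82 (adjusted p 0.0251).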

How the results depend on the processing

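The count of 0 called tiles was 1 with reads thinned to 1 depth, 18 (7 higher, 11 lower) in a fit of the 6 day 0 libraries alone, 21 with the replicate number as a block in that fit, and 0 to 1 without each replicate; all of those calls were promoter tiles with a mean under 5 reads, among them Rph3al (adjusted p 0.0143 and 0.0423 in the 2 fits of 6 libraries). It was 0 as deposited and, in an alternative chosen after seeing the data, without promoter tiles below the highest 10% (lowest adjusted p 0.961). Neighbourhoods gave 3 in the fit of 6 libraries and 0 to 1 without each replicate. The 3 tiles that differed between days numbered 0 as deposited and 0 to 8 without each replicate, and the 6 that differed from the TET family (0 higher, 6 lower) 4 as deposited (3 higher, 1 lower) and 2 to 10 without each replicate. The windows, added after seeing the data, gave at 10 kb 0 as deposited, 0 in the fit of 6 libraries, 0 with the replicate block and 0 to 3 without each replicate, and at 100 kb 7 (1 higher, 6 lower), 0, 1 and 0 to 1. Chromosomes apart numbered 2 to 5 without each replicate. The gene body difference was -0.026 by mean log2 RPKM, against 0.00 by share of reads, and -0.011 to 0.0090 without each replicate. The sign of Dazl was positive as deposited (0.12) and by voom on recovered reads (0.10) and ran over -0.18 to 0.15 without each replicate, that of Nanog over -0.30 to 0.045 and that of Dnmt3a over -0.45 to 0.078. Promoter share ran over 0.01 to 0.25 and the low-accessibility share over -0.12 to -0.03. Where a library pulled a value this far, the cause was not tested. Of the other alternatives, leaving out a replicate aside, 284 values of single tiles or windows kept direction and side of the threshold. Depth, with 8 to 13 reads in a median tested tile, limits single tiles, and replicates also differed beyond counting (chi-square of 1.06 to 1.59 per tile within DNMT_KO at day 0). Same-numbered libraries of the lines shared only a number (correlations of their deviations -0.034, 0.010 and -0.007).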
